A study of Mus musculus with 18 samples.

Results

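Chromatin accessibility was examined at 10 genes of the glycolytic switch and its regulator: Hif1a, Slc2a1, Hk2, Hk3, Pfkfb3, Pfkp, Pgk1, Eno1, Ldha and Slc16a3. Their peaks were those of the union peak table that overlapped an annotated gene body or the 25 kb on either side of it, which gave 246 of 194284 peaks. The rule used the position of each peak and no accessibility value, but the genes were chosen with earlier results of these data known. Of the 246 peaks, 58 were in the promoter class and 188 in the distal class of the study's own annotation, and 22 lay at the start of a coding transcript of the member gene. The number of peaks per gene ranged from 11 for Hk3 to 39 for Hif1a, and 8 peaks also lay over the promoter of a neighbouring gene. Coordinates are those of mm9 throughout.

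The data were ATAC-seq libraries of bone marrow-derived macrophages (BMDMs), which were grown for 6 days in L929-conditioned medium from the marrow of 3 Il10-/- mice on a C57BL/6J background, 12 weeks old. Because every group carried the Il10 deletion, no comparison between groups could check it. With that deletion the cells were not expected to make IL-10 of their own. Cells were left untreated, or were given 500 nM (+)-JQ1, an inhibitor of the bromodomain and extra-terminal (BET) proteins that read acetylated histones, or 10 ng/mL IL-10, an anti-inflammatory cytokine. After 12 hours, PBS or 50 ng/mL lipopolysaccharide (LPS), a component of bacterial cell walls, was added for 4 hours. With and without LPS, and with neither pretreatment, (+)-JQ1 or IL-10, this made 6 groups of 3 libraries, and the group without any addition is called unstimulated. Libraries held between 12020526 and 25908198 counts in peaks.

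Macrophages given LPS shift their energy metabolism towards glycolysis, and HIF-1α, encoded by Hif1a, is a transcription factor known to drive glycolytic genes in this setting. Glucose enters through the transporter GLUT1 (Slc2a1) and is phosphorylated by the hexokinases (Hk2, Hk3). Phosphofructokinase (Pfkp) performs the committed step and is activated by the product of PFKFB3. Phosphoglycerate kinase (Pgk1) and enolase (Eno1) act in the lower part of the pathway, lactate dehydrogenase A (Ldha) makes lactate from pyruvate, and the transporter MCT4 (Slc16a3) exports it. IL-10 signalling is known to restrain this switch in macrophages.

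Unstimulated replicate 1 stood apart from the other libraries. The TMM scaling factors were 1.24, 1.15 and 1.04 in unstimulated replicates 1, 2 and 3, against 0.896 to 1.05 in the other 15 libraries, and the share of counts in promoter-class peaks was 40.8%, 42.8% and 45.5%, against 42.4% to 51.1%. Only replicate 1 lay outside the other groups on both measures. It also had the lowest value of all 18 libraries at each of the 10 main promoter peaks. Scaling by total counts in place of TMM moved the all-peak median for LPS against unstimulated, in log2, from -0.03 to -0.26, so for comparisons with the unstimulated group the counts of member DARs are given under both scalings. All 8 macrophage markers had a promoter peak, with summed counts between 2520 and 5340 per library. No promoter peak was found for Cd3e, Cd3d, Ly6g, Col1a2 and Dcn, and the 3 remaining neutrophil markers (Elane, Mpo and S100a8) summed to 635 to 725 in the LPS libraries and 872 to 949 in the LPS + IL-10 libraries. The part of that difference in the results below was not tested. A bulk library does not separate a change within each cell from a change in the mixture of cells.

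The sequences below come from peaks and starts that the results describe, and no result rests on their letters. The distal ones are 200 bases of the plus strand around the searched letters closest to the middle of each peak. Each distal window therefore holds a match by construction. The Pfkfb3 ones are centred 294 to 500 bp from the middle of their peaks, outside the central 500 bases used for the motif shares. Both strands were searched, and capitals mark matches. The core of the HIF response element was taken as ACGTG, or as GCGTG. An E-box was taken as CACGTG, which itself holds the HIF core. The letters for the AP-1 family were TGANTCA. For κB the letters were GGGANTTTC. For the IRF family of interferon regulatory factors they were GAAANNGAA. For PU.1, a factor that defines the myeloid lineage, they were GAGGAAGT. For the C/EBP family they were TTGCNNAA. The peak 24.7 kb upstream of Hif1a is shown because LPS opened it and both treatments lowered it, and the capitals are an IRF match.
Hif1a upstream, chr12:74977723-74977922: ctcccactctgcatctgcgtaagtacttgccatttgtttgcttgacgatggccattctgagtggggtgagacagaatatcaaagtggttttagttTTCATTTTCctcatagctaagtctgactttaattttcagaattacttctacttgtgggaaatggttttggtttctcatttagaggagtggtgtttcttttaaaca
The peak beyond the 3′ end of Pfkfb3 had the largest rise with LPS + IL-10, and the peak 10.9 kb upstream is the strongest upstream rise. Each holds a CACGTG, and the upstream window also holds an IRF match.
Pfkfb3 beyond the 3′ end, chr2:11390762-11390961: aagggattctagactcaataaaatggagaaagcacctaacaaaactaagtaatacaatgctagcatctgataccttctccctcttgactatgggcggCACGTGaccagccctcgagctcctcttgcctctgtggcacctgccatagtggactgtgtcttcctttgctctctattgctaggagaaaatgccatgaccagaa
Pfkfb3 10.9 kb upstream, chr2:11434807-11435006: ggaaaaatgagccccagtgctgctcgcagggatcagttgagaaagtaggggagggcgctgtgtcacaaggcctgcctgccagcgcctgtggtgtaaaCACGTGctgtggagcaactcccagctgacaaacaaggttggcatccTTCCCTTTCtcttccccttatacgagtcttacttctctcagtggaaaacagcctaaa
The peak 22.3 kb upstream of Pfkfb3 carried the largest LPS change of that gene, with a C/EBP match, and the intronic Slc2a1 peak the largest LPS change of Slc2a1, with an AP-1 match.
Pfkfb3 22.3 kb upstream, chr2:11446392-11446591: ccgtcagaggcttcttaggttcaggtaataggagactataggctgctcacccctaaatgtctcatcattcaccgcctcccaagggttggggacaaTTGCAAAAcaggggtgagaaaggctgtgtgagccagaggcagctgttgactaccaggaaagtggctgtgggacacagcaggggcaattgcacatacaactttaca
Slc2a1 intron, chr4:118798657-118798856: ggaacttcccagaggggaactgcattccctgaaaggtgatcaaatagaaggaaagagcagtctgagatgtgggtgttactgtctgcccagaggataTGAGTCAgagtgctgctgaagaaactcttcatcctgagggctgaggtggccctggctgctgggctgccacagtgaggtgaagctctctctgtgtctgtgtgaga
The 250 bases before the start of a transcript are given on the strand of the gene, with only the HIF core in capitals, for the 2 separate Hif1a starts and for the main starts of Pfkfb3 and Ldha, whose peaks were no DAR with LPS + IL-10 although other peaks of the locus rose.
Hif1a upstream start, chr12:75002112-75002361, plus strand: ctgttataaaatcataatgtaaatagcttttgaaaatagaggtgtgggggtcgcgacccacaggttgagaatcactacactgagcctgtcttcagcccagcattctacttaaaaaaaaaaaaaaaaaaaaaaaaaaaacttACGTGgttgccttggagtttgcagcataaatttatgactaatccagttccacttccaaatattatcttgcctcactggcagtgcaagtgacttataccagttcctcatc
Hif1a main start, chr12:75008641-75008890, plus strand: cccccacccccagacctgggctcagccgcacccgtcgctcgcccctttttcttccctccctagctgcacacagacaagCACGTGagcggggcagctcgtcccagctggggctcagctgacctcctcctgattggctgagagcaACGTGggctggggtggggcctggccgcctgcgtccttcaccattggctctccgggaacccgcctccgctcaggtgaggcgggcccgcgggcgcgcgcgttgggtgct
Pfkfb3 start, chr2:11423729-11423978, minus strand: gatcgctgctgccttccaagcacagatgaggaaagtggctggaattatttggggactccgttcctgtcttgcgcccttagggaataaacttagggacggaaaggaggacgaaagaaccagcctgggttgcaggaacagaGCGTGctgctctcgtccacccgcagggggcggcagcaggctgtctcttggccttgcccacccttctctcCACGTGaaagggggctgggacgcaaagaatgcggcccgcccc
Ldha main start, chr7:54100959-54101208, plus strand: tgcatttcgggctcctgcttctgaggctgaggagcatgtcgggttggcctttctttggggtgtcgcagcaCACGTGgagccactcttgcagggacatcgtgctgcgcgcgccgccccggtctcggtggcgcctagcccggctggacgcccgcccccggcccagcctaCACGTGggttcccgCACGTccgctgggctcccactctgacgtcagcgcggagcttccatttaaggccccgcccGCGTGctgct

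A differentially accessible region (DAR) was a peak with FDR under 0.05 and an absolute log2 fold-change above 0.5 in edgeR's quasi-likelihood test, adjusted over the 194230 peaks tested. All 246 member peaks were tested. LPS against unstimulated gave 41 member DARs that rose (16.7%) and 7 that fell (2.85%), against 11.7% rose and 10.2% fell among all peaks. Under total-count scaling, where the all-peak median log2 was -0.26, the member DARs were 20 that rose and 19 that fell. By gene, those that rose were then 4 of Hk2, 3 each of Hif1a, Hk3, Pfkfb3 and Pgk1, 2 of Eno1 and 1 each of Pfkp and Slc2a1. Those that fell were 5 of Ldha, 4 of Eno1, 3 each of Hk2 and Pgk1, 2 of Pfkp and 1 each of Pfkfb3 and Slc2a1. LPS + (+)-JQ1 against LPS gave 5 that rose (2.03%) and 19 that fell (7.72%), against 1.74% and 3.49% of all peaks. LPS + IL-10 against LPS gave 48 that rose (19.5%) and 15 that fell (6.1%), against 4.26% and 4.51% of all peaks, and the median log2 fold-change was 0.274 for the member peaks and -0.013 for all peaks. Of the 48, 22 were peaks of Pfkfb3, and the plot of fold-changes by gene shows how far that gene stood from the other 9.

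**Figure D1:**
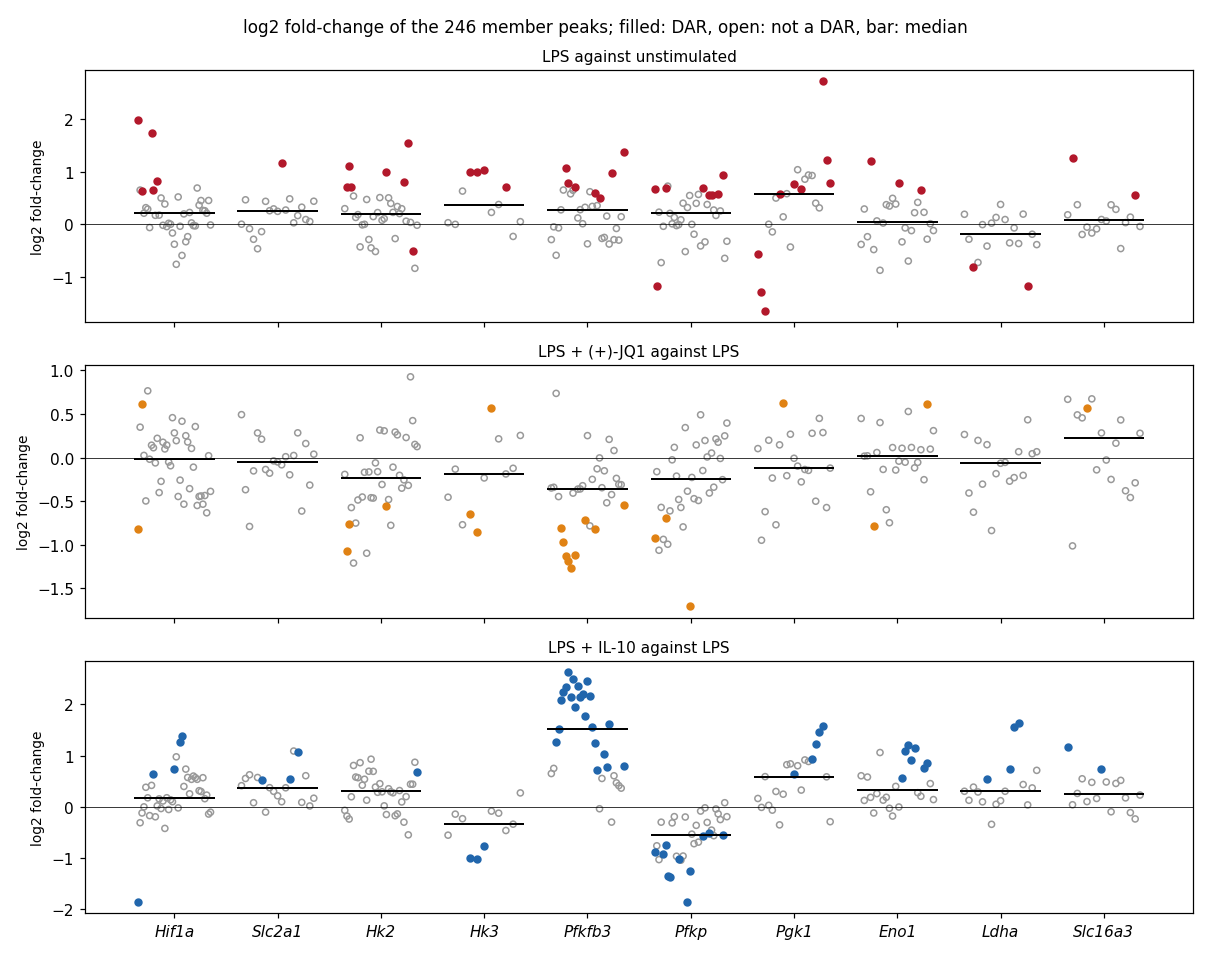
The log2 fold-change (vertical axis) of the 246 member peaks is plotted by gene, in genome order within a gene, for LPS against unstimulated, LPS + (+)-JQ1 against LPS and LPS + IL-10 against LPS. Filled points are DARs, open points are not, and bars are medians. In the lowest panel the median of Pfkfb3 is 1.51 and that of Pfkp -0.56.

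The 41 peaks that LPS opened were followed by gene. With LPS + (+)-JQ1 against LPS, 13 of them fell and 1 rose. Among all 22790 peaks that rose with LPS, 21.7% fell and 0.584% rose in that comparison. With LPS + IL-10 against LPS, 9 of the 41 fell and 8 rose, and of all LPS-opened peaks 24.2% fell and 2.52% rose. The 9 that fell were 5 of Pfkp, 3 of Hk3 and 1 of Hif1a, and 5 of these 9 also fell with (+)-JQ1. The 8 that rose included 5 of Pfkfb3, and those same 5 fell with (+)-JQ1. Of the 48 peaks that rose with LPS + IL-10, 40 were not DARs of LPS against unstimulated. These comparisons share the LPS libraries, in which the 41 peaks were chosen for being high, so nothing is read from the falls. In LPS + IL-10 against LPS, 38 of the 63 member DARs remained DARs in each of the 6 fits that left out 1 library, 25 of 48 did so in LPS against unstimulated and 10 of 24 in LPS + (+)-JQ1 against LPS. DARs that did so are called stable below.

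Hif1a had 5 peaks that rose with LPS and none that fell. Under total-count scaling 3 rose. The largest change lay 24.7 kb upstream, at chr12:74976832-74978503, outside any annotated gene. Its normalized counts were 43, 31 and 34 in the unstimulated libraries and 114, 133 and 178 in the LPS libraries, a log2 fold-change of 1.98 ± 0.23 (SE; FDR 4.2e-12). The LPS + IL-10 libraries were at 38, 32 and 46, a fall of 1.86 ± 0.22 in log2 from LPS (FDR 1.09e-10). The values with IL-10 overlapped those of the unstimulated libraries, and the rise with LPS and the fall with IL-10 were stable. The LPS + (+)-JQ1 libraries lay between, at 91, 80 and 72, a log2 fold-change of -0.81 ± 0.20 (FDR 0.00521) that was not a DAR without LPS replicate 3 or without LPS + (+)-JQ1 replicate 3. LPS + (+)-JQ1 was higher than LPS + IL-10 at this peak by 1.05 ± 0.23 in log2. A second upstream peak, 4.8 kb before the gene at chr12:74997184-74997980, rose from 29, 12 and 27 to 76, 65 and 83 with LPS (log2 1.73 ± 0.26, FDR 6.82e-08), and it was no DAR with either treatment. Another peak, 20.1 kb upstream at chr12:74981681-74982913, rose with LPS (log2 0.63 ± 0.15) and further with LPS + (+)-JQ1, where the libraries were at 373, 359 and 409 against 220, 271 and 258 with LPS (log2 0.61 ± 0.14, FDR 0.00133).

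Accessibility at the 2 Hif1a starts was read separately. The peak at the upstream start, chr12:75001666-75002714, was at 90, 91 and 82 in the unstimulated libraries and 150, 133 and 185 with LPS (log2 0.82 ± 0.17, FDR 0.000129). It was also higher with (+)-JQ1 alone (log2 0.79 ± 0.18) and IL-10 alone (log2 0.73 ± 0.17). The more accessible peak at the main start, chr12:75008649-75009792, was at 670, 790 and 904 unstimulated and 1170, 933 and 980 with LPS, a log2 difference of 0.38 ± 0.14 that was not a DAR. With LPS + IL-10 it was at 786, 799 and 719, below the 3 LPS libraries, but the log2 difference of -0.42 ± 0.14 did not pass the fold-change threshold. The response to LPS at the main start differed between cells with and without IL-10 (interaction, log2 -0.88 ± 0.19, FDR 0.00112), and was still a DAR under total-count scaling (log2 -0.61 ± 0.14). Without replicate 2 of every group, none of the Hif1a interactions with IL-10 was a DAR. Of all promoter-class peaks, 16.9% fell in this interaction. Toward the 3′ part of the gene, the intronic peak chr12:75034564-75035959 had 36, 43 and 57 counts with LPS and 126, 85 and 113 with LPS + IL-10 (log2 1.26 ± 0.22, FDR 1.3e-05). No library of the other 5 groups reached the lowest LPS + IL-10 value there. In all, 4 Hif1a peaks rose and 1 fell with LPS + IL-10. Without single libraries (LPS replicate 1, 2 or 3, or LPS + IL-10 replicate 1 or 3) the 5 DARs became 2 or 3.

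Slc2a1 had a single LPS DAR, the intronic peak chr4:118797869-118799924. Its counts were 269, 291 and 407 unstimulated, 782, 699 and 690 with LPS, 728, 644 and 681 with LPS + (+)-JQ1 and 908, 673 and 743 with LPS + IL-10. The rise with LPS was 1.16 ± 0.14 in log2 (FDR 3.71e-11) and stable, and the 3 groups given LPS overlapped. The promoter peak chr4:118781131-118782435 was not a DAR with LPS (log2 0.44 ± 0.13) or with LPS + IL-10 (log2 -0.10 ± 0.13). With LPS + IL-10, 3 other Slc2a1 peaks rose and none fell. The broad peak over the 3′ end, chr4:118802978-118817134, went from 560, 628 and 514 with LPS to 971, 727 and 789 with LPS + IL-10 (log2 0.55 ± 0.14, FDR 0.00264), with no overlap, but was no DAR without LPS replicate 3 or without LPS + IL-10 replicate 1. Without LPS replicate 3, 1 of the 3 remained.

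The hexokinase gene Hk2 had 6 peaks that rose with LPS and 1 that fell, and its promoter peak, chr6:82723001-82724083, rose from 297, 373 and 497 to 737, 660 and 629 (log2 0.79 ± 0.14, FDR 2.41e-06). Of the other 5 that rose, 3 fell with LPS + (+)-JQ1, among them the peak beyond the 3′ end at chr6:82663930-82665176. The LPS libraries held 186, 139 and 191 counts there, those of LPS + (+)-JQ1 86, 104 and 109 (log2 -0.77 ± 0.17, FDR 0.00157), with no overlap. None of the 6 fell with LPS + IL-10. Hk2 had 1 DAR in LPS + IL-10 against LPS, a peak 23.7 kb upstream that rose (log2 0.68 ± 0.14). Hk3, a hexokinase found mainly in myeloid cells, had 4 peaks that rose with LPS, and 3 adjoining broad peaks over the gene and its 3′ side carried the change. The peak over the 3′ end, chr13:55099685-55113076, also lies over a promoter of the neighbouring Unc5a. It was at 710, 590 and 733 unstimulated, 1250, 1280 and 1510 with LPS, 526, 911 and 779 with LPS + (+)-JQ1, and 633, 574 and 780 with LPS + IL-10. The log2 fold-changes were 0.99 ± 0.14 for LPS, -0.86 ± 0.14 for LPS + (+)-JQ1 against LPS and -1.02 ± 0.14 for LPS + IL-10 against LPS, and each was stable. The peak over the 5′ part of Hk3, chr13:55113110-55121060, rose with LPS (log2 1.03 ± 0.14) and fell with LPS + IL-10 (log2 -0.77 ± 0.13). It was no DAR with LPS + (+)-JQ1, where the counts of 577, 574 and 523 overlapped the LPS counts of 564, 660 and 745. The Hk3 promoter peak was no DAR in any of these 3 comparisons.

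Pfkfb3, which encodes the enzyme that makes the activator of phosphofructokinase, had more DARs than any other member gene in this comparison. With LPS + IL-10 against LPS, 22 of its 31 peaks rose and none fell, and 19 of the 22 were stable. The 3 LPS + IL-10 libraries lay above the other 15 at 22 of the 31 peaks, against 2.49% of all peaks. All 12 peaks over its gene body rose, as did 6 of 8 downstream and 4 of 10 upstream peaks. The largest rise was at chr2:11389251-11391626, just beyond the 3′ end of the gene. Its counts were 53, 60 and 35 unstimulated, 54, 47 and 49 with IL-10 alone, 101, 94 and 55 with LPS, and 650, 433 and 478 with LPS + IL-10. The log2 fold-change from LPS was 2.63 ± 0.17 (FDR 5.27e-24). Within the gene, the peak chr2:11397979-11399678 went from 43, 56 and 46 with LPS to 335, 177 and 230 with LPS + IL-10 (log2 2.35 ± 0.20, FDR 1.27e-16). The promoter peak, chr2:11423349-11424287, did not follow. It was at 692, 677 and 605 with LPS and 773, 599 and 552 with LPS + IL-10 (log2 -0.04 ± 0.14), so the groups overlapped. In the plot of the locus, the log2 rise was 0.72 at 3.9 kb from the start and 1.25 at 9.2 kb, lay between 1.77 and 2.63 from 14.9 to 37.4 kb, and was 1.27 at 42.4 kb.

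**Figure D2:**
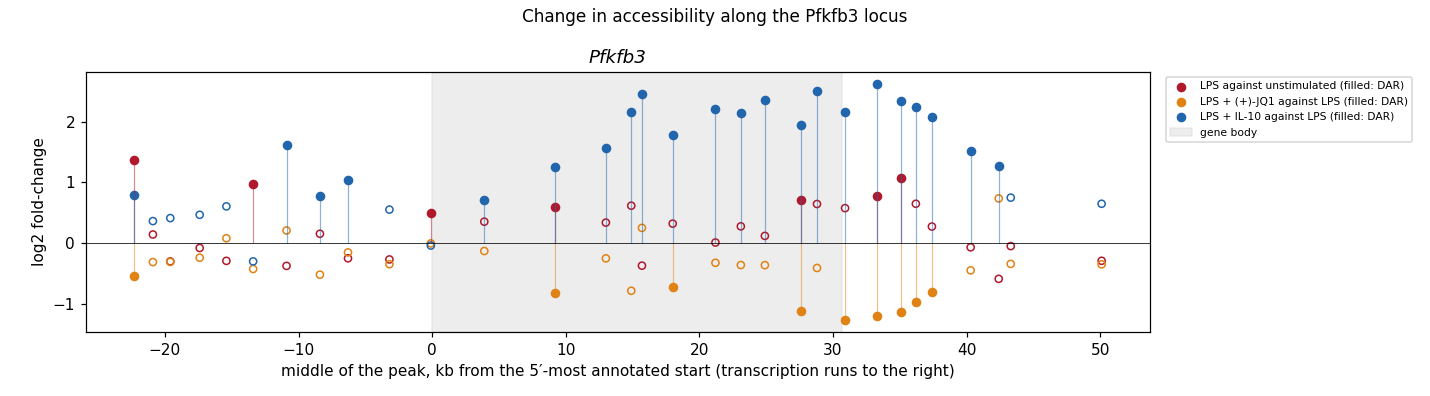
The log2 fold-change (vertical axis) of the 31 Pfkfb3 peaks is plotted against distance in kb from the annotated start, with the gene body in grey, for LPS against unstimulated (red), LPS + (+)-JQ1 against LPS (orange) and LPS + IL-10 against LPS (blue). Filled points are DARs. The highest blue point, just beyond the 3′ end, is at 2.63 and the promoter peak is at -0.04.

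Upstream of Pfkfb3 the peaks did not move together. The peak 10.9 kb upstream, chr2:11433660-11435564, was at 152, 161 and 172 unstimulated and 107, 151 and 117 with LPS, and at 435, 356 and 360 with LPS + IL-10 (log2 1.62 ± 0.15 against LPS, FDR 7.28e-15). The peak 13.4 kb upstream, chr2:11435662-11438538, opened with LPS from 93, 77 and 82 to 153, 193 and 147 (log2 0.97 ± 0.17, FDR 5.11e-06) and was at 133, 126 and 142 with LPS + IL-10. The peak 22.3 kb upstream, chr2:11445129-11446854, did both. Its counts were 79, 92 and 108 unstimulated, 230, 266 and 231 with LPS (log2 1.37 ± 0.17, FDR 7.4e-11) and 477, 352 and 434 with LPS + IL-10 (log2 0.80 ± 0.15 against LPS, FDR 3.48e-05). (+)-JQ1 went the other way at Pfkfb3, with 9 of 31 peaks lower in LPS + (+)-JQ1 than in LPS and none higher, and the peak beyond the 3′ end was at 33, 33 and 42 (log2 -1.19 ± 0.22, FDR 3.13e-05). The exonic peak chr2:11392126-11393600 went from 48, 51 and 58 with LPS down to 26, 14 and 25 with LPS + (+)-JQ1 (log2 -1.27 ± 0.26) and up to 284, 188 and 224 with LPS + IL-10 (log2 2.15 ± 0.20), and both changes were stable. All 9 were among the 22 that rose with IL-10. Without LPS replicate 2 or 3, or without LPS + (+)-JQ1 replicate 2 or 3, the 9 became 5. (+)-JQ1 without LPS gave 1 Pfkfb3 DAR that rose and 3 that fell, and under total-count scaling none and 9. The interaction of LPS and (+)-JQ1 gave no DAR at Pfkfb3. IL-10 without LPS gave no DAR at Pfkfb3, but under total-count scaling 3 peaks were lower and none higher. The interaction of LPS and IL-10 rose at 19 of the 31 peaks and fell at none, with 2.59 ± 0.28 in log2 at the peak beyond the 3′ end (FDR 1.28e-10).

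Pfkp, which encodes the platelet-type phosphofructokinase, went the opposite way with IL-10. LPS opened 7 of its 34 peaks and closed 1, but under total-count scaling it opened 1 and closed 2. The largest rise was 3.1 kb upstream at chr13:6650004-6652326, where the counts went from 72, 76 and 52 to 117, 119 and 150 (log2 0.94 ± 0.20, FDR 9.48e-05). With LPS + IL-10 against LPS, 11 Pfkp peaks fell and none rose, and the median log2 fold-change of the 34 was -0.56. The 11 became 6 without LPS replicate 1 and 7 without LPS replicate 2, LPS replicate 3 or LPS + IL-10 replicate 2, and 5 of them were stable. Among those 5, the peak beyond the 3′ end at chr13:6574902-6577448 had 209, 161 and 151 counts with LPS, 117, 96 and 100 with LPS + IL-10 (log2 -0.74 ± 0.17, FDR 0.000769), and 121, 96 and 107 with LPS + (+)-JQ1 (log2 -0.70 ± 0.17, no DAR without LPS replicate 1). The unstimulated libraries, at 102, 110 and 113, lay among the values of both treatments. The upstream peak was at 87, 95 and 80 with LPS + IL-10, and its fall of 0.56 in log2 was lost whichever of the 6 libraries was left out. The main promoter peak, chr13:6630727-6640107, is broad and lies over a start within the gene. Its middle is 12.6 kb from the 5′-most annotated start. Among the 3 Pfkp promoter peaks, whose log2 fold-changes with LPS ran from -0.01 to 0.55, it was the only LPS DAR. It rose with LPS from 456, 505 and 478 to 674, 705 and 725 (log2 0.55 ± 0.13). With LPS + IL-10 it was at 546, 492 and 494, below all LPS libraries (log2 -0.46 ± 0.13), though not a DAR, and with LPS + (+)-JQ1 it was at 758, 694 and 728. IL-10 alone gave 7 Pfkp DARs, all lower than unstimulated. Under total-count scaling 10 were lower. The 7 became 2 without unstimulated replicate 1 or 2, 1 without IL-10 replicate 1 and 3 without IL-10 replicate 2.

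**Figure D3:**
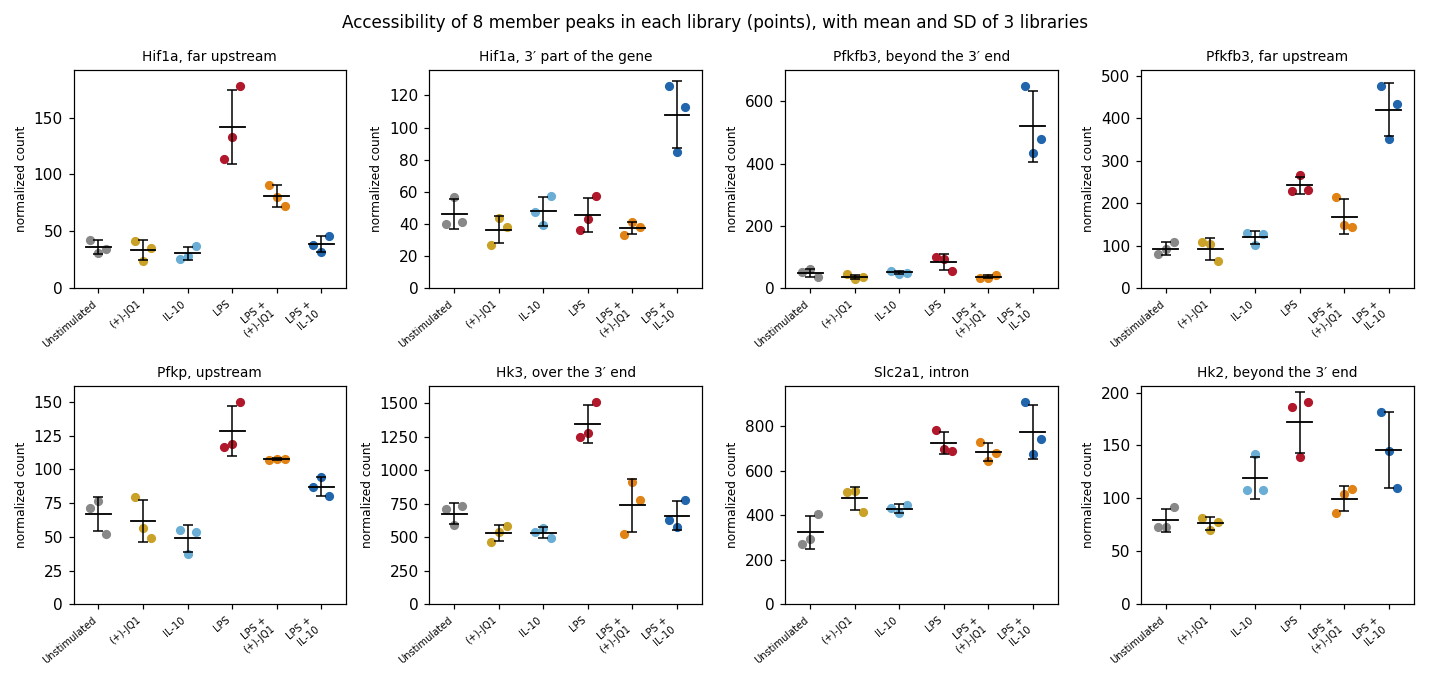
Normalized counts (vertical axis, from 0) of 8 member peaks are plotted for each of the 18 libraries by group. Points are libraries, bars the mean and error bars the SD of 3. LPS + IL-10 libraries are at 433 to 650 at the Pfkfb3 peak beyond the 3′ end and at 32 to 46 at the upstream Hif1a peak, where the LPS libraries are at 114 to 178.

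Over the 9 members other than Pfkfb3, 19 of 143 peaks in the gene body or downstream rose in LPS + IL-10 against LPS (13.3%) and 12 fell. Of their 72 promoter or upstream peaks, 7 rose (9.7%) and 3 fell. Over all peaks 4.26% rose and 4.51% fell. In the study's distal class 4.54% of all peaks rose, and in its promoter class 3.04%. Shares of all peaks by side of a gene were not counted, so nothing is read from the split. At Ldha the peak over the 3′ end, chr7:54110295-54113701, was at 87, 114 and 109 with LPS and 379, 295 and 237 with LPS + IL-10 (log2 1.55 ± 0.16, FDR 5.71e-13). The peak at its upstream start, chr7:54093769-54097355, went from 216, 183 and 194 to 297, 241 and 322 (log2 0.54 ± 0.14, FDR 0.00575), and was no DAR without LPS replicate 2 or without LPS + IL-10 replicate 3. Its main promoter peak, chr7:54101022-54101933, overlapped between these groups, at 488, 528 and 393 against 549, 516 and 469. LPS closed 2 Ldha peaks and opened none (5 and none under total-count scaling), but both were lost without unstimulated replicate 2 or LPS replicate 1, and 1 without LPS replicate 2.

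At Eno1, 7 peaks rose with LPS + IL-10 and none fell. The broad peak over the 3′ end, chr4:149620626-149626598, was at 263, 326 and 246 with LPS and 620, 498 and 468 with LPS + IL-10 (log2 0.92 ± 0.14, FDR 1.66e-07), and the next one downstream, chr4:149626767-149629384, went from 93, 89 and 85 to 230, 186 and 180 (log2 1.15 ± 0.19, FDR 2.31e-06). Both were stable and neither differed between LPS and unstimulated. The 7 became 4 without LPS replicate 3 or without LPS + IL-10 replicate 1. A peak beyond the gene, chr4:149640159-149641739, rose with both treatments, from 90, 82 and 67 with LPS to 165, 125 and 144 with LPS + IL-10 (log2 0.86 ± 0.18, stable) and to 147, 96 and 127 with LPS + (+)-JQ1 (log2 0.62 ± 0.18), where the call was lost without LPS replicate 2 or 3 or without LPS + (+)-JQ1 replicate 1 or 3. LPS opened 3 Eno1 peaks and closed none (2 and 4 under total-count scaling), the best supported being the exonic peak chr4:149613803-149614553, from 157, 175 and 245 to 337, 340 and 316 (log2 0.78 ± 0.14, FDR 9.39e-06). Pgk1 had 6 peaks that rose and 3 that fell with LPS, and its promoter peak, chrX:103381987-103384309, rose from 366, 370 and 502 to 675, 589 and 589 (log2 0.58 ± 0.14, FDR 0.000663). The largest LPS rise by the naming rule, chrX:103414583-103415323, from 84, 87 and 96 to 180, 130 and 150 (log2 0.79 ± 0.17), lay over the promoter of the neighbouring Taf9b. One intronic Pgk1 peak, chrX:103384493-103386600, rose with LPS + (+)-JQ1 from 161, 152 and 132 to 254, 220 and 219 (log2 0.63 ± 0.16), and was no DAR without LPS replicate 3. With LPS + IL-10, 5 Pgk1 peaks rose, all in the gene body or downstream. These 5 rested on 1 library, since none remained without LPS + IL-10 replicate 1, and 2 remained without LPS replicate 1 or 3.

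Slc16a3 had 2 peaks that rose with LPS, neither of them stable, and the larger by the naming rule, chr11:120842652-120845418, went from 78, 80 and 70 to 98, 114 and 123 (log2 0.56 ± 0.19), while under total-count scaling no Slc16a3 peak was a DAR with LPS. LPS + IL-10 raised 2 of its peaks against LPS, and both were stable. The peak at the upstream start, chr11:120809704-120810568, went from 243, 212 and 209 to 401, 337 and 372 (log2 0.74 ± 0.14, FDR 3.8e-05). The broad peak over the main start and the whole gene, chr11:120810869-120829219, was at 1230, 1160 and 1120 with LPS and at 1690, 1610 and 1600 with LPS + IL-10, above every other library. Its log2 difference of 0.48 ± 0.13 (FDR 0.00551) stayed just under the fold-change threshold, and among the other settings it was a DAR without LPS replicate 1, under total-count scaling and with loess offsets.

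At the main promoter peaks LPS raised the values of 4 of the 10 genes past both thresholds: Hk2, Pfkfb3, Pfkp and Pgk1. The Pfkp peak lies over a start within the gene, and the peak nearest its 5′-most start was not a DAR. Of all promoter-class peaks, 14.3% rose with LPS, and 9 of the 58 member peaks of that class did (15.5%). Under total-count scaling only Hk2 of the 4 remained a DAR (log2 0.58 ± 0.11), with 0.28 at Pfkfb3, 0.32 at Pfkp and 0.36 at Pgk1. At Pfkfb3 the rise from 355, 472 and 564 to 692, 677 and 605 (log2 0.50 ± 0.14) was no longer a DAR without unstimulated replicate 1 or without LPS replicate 1 or 2. None of the 10 promoter peaks was a DAR in LPS + (+)-JQ1 against LPS or in LPS + IL-10 against LPS. Their log2 differences ranged from -0.26 to 0.22 with (+)-JQ1 and from -0.46 to 0.48 with IL-10.

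**Figure D4:**
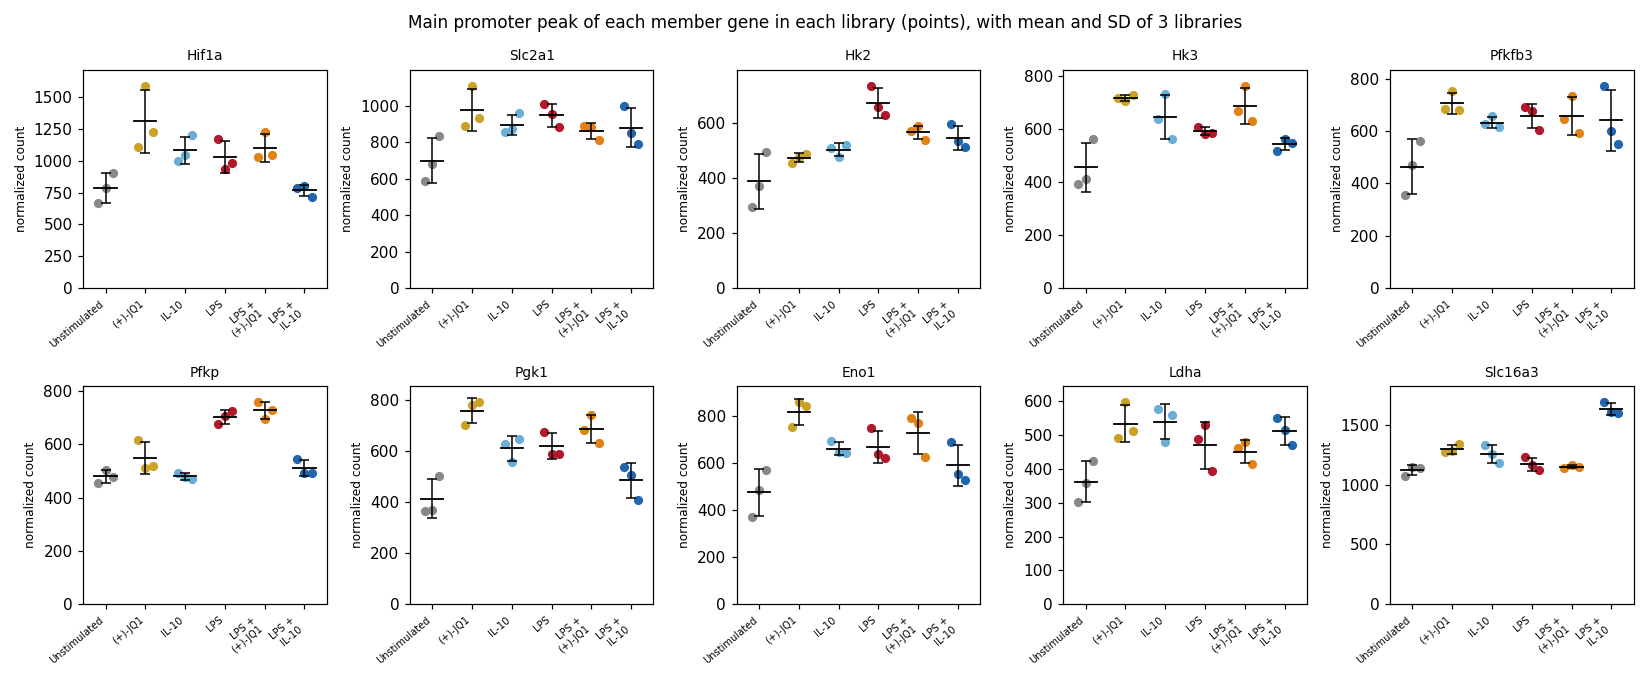
Normalized counts (vertical axis, from 0) of the main promoter peak of each member gene are plotted for each of the 18 libraries by group. Points are libraries, bars the mean and error bars the SD of 3. Unstimulated replicate 1, the leftmost point of each panel, is the lowest of the 18 in all 10 panels.

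Without LPS, (+)-JQ1 alone against unstimulated gave 22 member DARs that rose (8.94%) and 10 that fell (4.07%), against 7.85% and 3.15% of all peaks. Of the 58 promoter-class member peaks 11 rose (19%), against 22.9% of all promoter-class peaks. The main promoter peaks of Hif1a, Hk3, Pfkfb3, Pgk1, Eno1 and Ldha were higher with (+)-JQ1 alone, with log2 fold-changes from 0.56 at Ldha to 0.87 at Pgk1, and those of Pfkfb3 and Ldha were no DAR without unstimulated replicate 1. Under total-count scaling those of Pgk1 (log2 0.60) and Eno1 (log2 0.50) remained DARs and the other 4 did not. A distal rise lay 24.1 kb upstream of Slc16a3, at chr11:120785196-120786254, from 25, 48 and 37 to 57, 96 and 109 (log2 1.23 ± 0.24). The unstimulated libraries have the low promoter values given above. A second one, 15.6 kb upstream over the promoter of Ccdc57 at chr11:120793756-120794550, rose from 112, 126 and 156 to 270, 272 and 212 (log2 0.93 ± 0.15). The largest falls by the naming rule were upstream of Eno1, at chr4:149590565-149592511, from 119, 161 and 182 to 60, 101 and 92 (log2 -0.88 ± 0.19), and upstream of Ldha, at chr7:54080095-54082333, from 89, 89 and 79 to 63, 41 and 41 (log2 -0.82 ± 0.22, no DAR without (+)-JQ1 replicate 3). Without unstimulated replicate 1 the 32 DARs became 19, and under total-count scaling 10 rose and 39 fell, with loess offsets 6 and 13. IL-10 alone gave 11 that rose (4.47%) and 8 that fell (3.25%), against 5.16% and 3.5% of all peaks. The 19 became 9 without unstimulated replicate 1, 10 without replicate 2 and 36 without replicate 3. Under total-count scaling 3 rose and 20 fell, with loess offsets 2 and 9. Total-count scaling moved the all-peak median log2 from -0.09 to -0.37 for (+)-JQ1 alone and from -0.05 to -0.26 for IL-10 alone. The same Slc16a3 peak rose with IL-10 alone, at 76, 81 and 73 (log2 1.04 ± 0.24), and was stable in both comparisons. A peak 24.2 kb upstream of Eno1, chr4:149585965-149587322, rose with IL-10 alone from 265, 368 and 467 to 616, 581 and 663 (log2 0.75 ± 0.14), and a peak before Slc16a3, chr11:120806797-120809474, fell from 114, 87 and 95 to 46, 78 and 65 (log2 -0.64 ± 0.20), which was no DAR without unstimulated replicate 1 or without IL-10 replicate 1 or 3.

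LPS + (+)-JQ1 and LPS + IL-10 were also compared with each other. At 63 member peaks LPS + (+)-JQ1 was lower and at 7 it was higher (25.6% and 2.85%), against 4.68% and 3.43% of all peaks. Of the 63, 23 were at Pfkfb3 and 14 at Hk2. The peak beyond the 3′ end of Pfkfb3 was lower by 3.82 ± 0.19 in log2 (FDR 5.65e-32). Of the 14 Hk2 peaks, 13 ran from an intron 8.3 kb into the gene to beyond its 3′ end. The peak chr6:82671078-82673030 was at 43, 23 and 34 with LPS + (+)-JQ1 and 84, 85 and 78 with LPS + IL-10 (log2 -1.33 ± 0.24, FDR 2.96e-05). Without LPS + IL-10 replicate 1 the 14 became 8, and without LPS + (+)-JQ1 replicate 3 they became 9. The 7 higher with (+)-JQ1 were 3 of Hif1a, 2 of Hk3 and 2 of Pfkp.

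The interaction terms ask whether the response to LPS differed between pretreated and untreated cells. For (+)-JQ1, none of the member peaks rose and 8 fell (3.25%), against 0.649% and 3.19% of all peaks. All 8 rested on single libraries. They became 4 without unstimulated replicate 1, 1 without replicate 2 and 21 without replicate 3, 3 and 2 without (+)-JQ1 replicates 2 and 3, 1 and 5 without LPS replicates 1 and 2, and 5 and 1 without LPS + (+)-JQ1 replicates 1 and 3. Under total-count scaling 2 rose and 1 fell, and with loess offsets 1 and 1. For IL-10, 32 member peaks rose and 18 fell (13% and 7.32%), against 2.01% and 5.9% of all peaks. Under total-count scaling 58 rose and 4 fell, with loess offsets 38 and 4. Total-count scaling moved the all-peak median log2 of the IL-10 interaction from 0.04 to 0.31, and that of the (+)-JQ1 interaction from 0.02 to 0.29. The shares of all peaks called under total-count scaling or loess offsets were not counted. Of the 32 that rose under TMM, 19 were at Pfkfb3, 4 at Eno1, 3 at Ldha, 3 at Slc2a1, 2 at Pgk1 and 1 at Hif1a. The 18 that fell were spread over 6 genes: 4 each at Hk2 and Hk3, 3 each at Hif1a and Pfkp, and 2 each at Eno1 and Pgk1.

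The summed level of a locus was taken over all its peaks, in TMM-scaled CPM, and is compared only within a locus, since it follows the number and length of the peaks. Ratios are those of the group means, and the SD is that of the ratios between same-numbered libraries. At Pfkfb3 they were 113, 107 and 113 unstimulated, 141, 154 and 148 with LPS, and 418, 276 and 323 with LPS + IL-10, a ratio of 2.29 ± 0.597 (SD, n = 3) to LPS. At Pfkp they were 154, 152 and 151 with LPS and 115, 106 and 106 with LPS + IL-10, a ratio of 0.717, and at Hk3 the ratio was 0.662. The other 7 loci had ratios from 0.97 for Hif1a to 1.32 for Slc16a3.

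Other genes of the pathway were read at their promoter peaks only. Of all promoter-class peaks, 14.3% rose and 6.71% fell with LPS, 3.04% rose and 3.94% fell with LPS + IL-10 against LPS, and 1.72% rose and 3.22% fell with LPS + (+)-JQ1 against LPS. Of 23 glycolytic genes with such a peak, 5 rose and none fell with LPS, led by the glucose transporter gene Slc2a6 (log2 1.36 ± 0.14, FDR 1.6e-14), with Hk1, Aldoa, Pfkfb4 and Pdha1 between 0.53 and 0.64. With LPS + IL-10 against LPS, 2 fell, Slc2a6 (log2 -0.57 ± 0.13) and Pfkfb4 (log2 -0.53 ± 0.14), and none rose. None of the 23 was a DAR in LPS + (+)-JQ1 against LPS. Of 8 oxygen-sensing genes, Arnt, which encodes the partner of HIF-1α (log2 0.60 ± 0.14), and Hif3a (log2 0.71 ± 0.14) rose with LPS, and of 8 HIF targets outside glycolysis P4ha1 did (log2 0.55 ± 0.14). In these 2 lists none was a DAR in LPS + IL-10 against LPS or in LPS + (+)-JQ1 against LPS. All calls for these pathway genes were read under TMM only. Total-count scaling, which moved the all-peak median log2 for LPS from -0.03 to -0.26, was not read for them.

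The searched letters were counted in the member peaks and in all peaks. In the central 500 bases the HIF core was present in 45.12% of the member peaks and 41.12% of all peaks, the E-box in 6.91% and 7.06%, AP-1 in 19.11% and 18.07%, κB in 2.85% and 1.87%, IRF in 15.04% and 16.28%, C/EBP in 17.89% and 19.68%, and PU.1 in 3.25% and 6.54%. In the 250 bases before the start under the main promoter peak, all 10 genes held the HIF core, and 4 held CACGTG. Ldha had 6 matches, where a CACGTG is counted on each strand. The upstream starts of Ldha and Slc16a3 and another start within Pfkp held no core. Of the 5′-most starts of 22222 coding genes, 42.8% held the core and 6.5% held CACGTG. Member starts were picked for their accessible peak and the others were not, so the shares are a description.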

How the data were processed

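Nuclei of 18 BMDM cultures were profiled by ATAC-seq. The authors aligned reads to mm9 with Bowtie2 within PEPATAC, called peaks in each library with MACS2, merged them into a union set and annotated it with ChIPseeker (promoter from 1000 bp before to 100 bp after a start). The deposited values are raw read counts per peak and library, and the counting tool is not given in the sources used here. The 6 columns that match no sample were not used.

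Peaks were assigned with GENCODE M1 genes ± 25 kb. All 194284 peaks, 194230 of them testable, were fitted with edgeR 4.0.16 in R 4.3.3 (TMM, quasi-likelihood, the 6 groups together), with Benjamini-Hochberg FDR under 0.05 and an absolute log2 fold-change above 0.5. Normalized counts refer to the mean effective library size of 18785971. On simulated counts for LPS against unstimulated, 177 of 200 peaks changed by 1.5 in log2 were recovered (88.5%), with 8 false calls among 193776 peaks. The changed peaks were drawn above a count limit, and all peaks shared a single dispersion. Smaller changes and the scaling shift of the unstimulated libraries were not simulated, so the recovery holds for that setting only. Sequencing lane was 5 for replicate 1 and 6 for replicate 3, and replicate 2 was on lane 5 without LPS and lane 6 with LPS. Alternatives were scaling, low-count filters, DESeq2 1.42.0, a block on replicate number, the lane, thresholds, flanks and leaving out libraries. Members and gene lists were chosen with earlier results of these data known. Peaks were named by rule: each gene's main promoter peak (highest mean count), its largest LPS change (mean count of at least 50, same direction in all pairs), the 2 largest rises and falls per treatment comparison under the same conditions, and the 5 interaction peaks of lowest FDR. Further peaks were chosen after their values were seen.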

Additional observations from a re-analysis of the deposited data

Results flagged for a closer look

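In 10 named peaks the response to LPS differed between pretreated and untreated cells by the interaction term. With (+)-JQ1, the log2 difference in the LPS response was -0.66 at the Eno1 promoter peak chr4:149611080-149612049, -0.82 at the Eno1 exonic peak chr4:149613803-149614553, -1.08 at the Pfkp peak chr13:6551526-6554201, -0.73 at the Pgk1 promoter peak chrX:103381987-103384309 and -0.92 at the Pgk1 peak chrX:103414583-103415323. Each of these 5 was lost when at least 1 single library was left out. Under total-count scaling only the Eno1 exonic peak of the 5 remained a DAR (log2 -0.56). Of all promoter-class peaks 11.2% fell in this interaction, and of the member peaks of that class 8.62%. With IL-10, it was 2.59 at the Pfkfb3 peak chr2:11389251-11391626, 2.56 at chr2:11392126-11393600, 2.59 at chr2:11397979-11399678, 2.27 at chr2:11401298-11403829 and 2.15 at chr2:11404049-11407448.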

How the results depend on the processing

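With a test against a log2 fold-change of 0.5 (glmTreat), member DARs were 15 for LPS, 0 for (+)-JQ1 alone, 0 for IL-10 alone, 2 for LPS + (+)-JQ1, 29 for LPS + IL-10, 27 between the 2 treatments with LPS, 0 for the (+)-JQ1 interaction and 15 for the IL-10 interaction. With total counts there were 49 for (+)-JQ1 alone and 3 for its interaction, and with loess offsets 19 and 2, and 11 for IL-10 alone. With flanks of 10 kb there were 31 for LPS and 18 for (+)-JQ1 alone. IL-10 alone gave 10 with at least 10 counts in every library and 9 at an FDR of 0.01, where the interactions gave 0 and 25. The (+)-JQ1 interaction gave 4 with only the groups compared and 5 with a replicate block, and the block moved no other of these counts by over 1.5 times. The labels give a replicate number but do not tie it to a mouse, and deviations from the group means had a mean r of 0.00541 over 45 same-numbered pairs and -0.00271 over 90 other pairs.

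Leaving out libraries gave 27 to 50 DARs for LPS, 9 to 39 for (+)-JQ1 alone, 3 to 36 for IL-10 alone, 12 to 26 for LPS + (+)-JQ1, 43 to 55 for LPS + IL-10, 43 to 67 between the treatments with LPS, 0 to 21 for the (+)-JQ1 interaction and 16 to 61 for the IL-10 interaction. The lowest count came without replicate 2 of every group, except for the (+)-JQ1 interaction, where it came without replicate 1. Under total counts the summed level with LPS relative to unstimulated was 1.12 for Hif1a, 1.09 for Hk2, 1.38 for Hk3, 0.823 for Ldha, 1.13 for Pfkfb3, 1.12 for Pfkp, 0.898 for Slc16a3 and 1.13 for Slc2a1, and with LPS + IL-10 relative to LPS it was 1.37 for Ldha, 0.75 for Pfkp and 1.37 for Slc16a3. Except where an alternative changes the samples or peaks tested, the cause was not tested.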
